A study of Mus musculus with 33 samples.

Results

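The 9 genes described here, Sox9, Sox10, Foxd3, Snai2, Twist1, Msx1, Msx2, Tfap2a and Ednra, act in the neural crest and in the tissues of the face and skull that it forms. They are taken by name, for their known roles, and the rule itself uses no measured value, although earlier results of these data were known when the genes were chosen. All 9 were found among 22367 protein-coding genes of the mouse mm9 genome. The neural crest is a population of cells that arises at the border of the neural plate, leaves the neural tube by losing its epithelial form, and migrates to build the cartilage and bone of the face, peripheral neurons, glia and pigment cells. Msx1, Msx2 and Tfap2a mark the border from which it arises, Foxd3, Snai2, Twist1, Sox9 and Sox10 specify the crest and its lineages, and Ednra is a receptor that crest cells of the jaw arches use. In stem cells, many developmental genes of this kind carry H3K4me3, a mark of active promoters, together with H3K27me3, the mark that Polycomb complexes lay down on silent genes. Such promoters are called bivalent.

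The marks were mapped by ChIP-seq, in which DNA held by a protein or a modified histone is recovered with an antibody and sequenced. Wild type (WT) E14 mouse embryonic stem cells (mESC) were compared with E14 cells that lack Uhrf1 (Uhrf1 KO), a protein that reads hemimethylated DNA and is needed to copy DNA methylation. Both were used as undifferentiated mESC and as embryoid bodies (EBs), floating clumps of differentiating cells of mixed type, at week 1, 2 or 3, and both had been kept in serum and leukemia inhibitory factor on gelatin or fibroblast feeders. Of 33 samples, 25 had a list of enriched regions: 18 of histone domains at the stages named, 6 of binding summits for Oct4, Sox2 or Nanog in mESC, and 1 of Uhrf1 windows in WT mESC. The further Uhrf1-null line that the study derived, JES6-Cre, is not among these samples, so the KO samples stand for E14 cells alone, and each group held 1 library, so no difference can be weighed against replicate error and no p-value is given. A whole EB was measured, so both marks at a promoter in the same cells and the marks of different cells cannot be told apart. The lists do not bear on the deletion of Uhrf1 itself, since no Uhrf1 ChIP of KO cells was analysed here.

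The 8 lists of H3K4me3 numbered from 11509 to 39898 domains, those of H3K27me3 from 722 to 9488. The list of 722, from KO mESC, stood apart: 53.9% of its domains had a mean count below 1 read per 1500 bp bin, whereas the lowest mean count in the WT mESC list was 3.04 reads per 1800 bp bin. Every mESC result on H3K27me3 rests on that list. Of 10 promoters of pluripotency genes, 6 were active in WT mESC and 9 in KO mESC, and 3 and 0 were bivalent (18.3% and 4.29% of all coding genes). In EBs the active ones of these 10 numbered 2 in WT and 1 in KO at week 1, and 6 and 8 at weeks 2 and 3 alike. Of 12 fibroblast genes, 0 had an active promoter in mESC of WT and 3 in those of KO, against 44.8% and 52.7% of all coding genes. In EBs the active fibroblast genes numbered 1 in WT and 3 in KO at week 1 (46.8% and 46.3% of all genes), 9 and 6 at week 2 (52.0% and 51.1%) and 3 and 7 at week 3 (46.7% and 54.5%). The direction thus differed between stages, and the part of feeder or fibroblast-like cells in the results was not tested.

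Over the 9 genes, the nearest start of another protein-coding gene lay from 23.1 kb (Sox10, to Polr2f) to 351 kb (Sox9) away. This distance was not computed over all coding genes. Many H3K27me3 and H3K9me3 domains below, and some H3K4me3 domains of Tfap2a, were longer than the distance to the nearest such start. A domain of that length need not belong to the gene named. Within 500 bp of the start, the ratio of observed to expected CpG had a median of 0.682 over the 9 genes, against 0.549 over all coding genes. It was highest at Twist1 (0.871, with 114 CpGs) and lowest at Sox10 (0.325, with 29). Ednra was the next lowest, at 0.395 with 32 CpGs. The 250 bases before the start are shown for Twist1 and Snai2, which both carried H3K4me3 in all 8 lists of that mark but differ in their number of CpGs upstream. They are printed from mm9 on the strand of the gene, 5′ to 3′, with each CpG in capitals. Twist1 (chr12:34642286-34642535, plus strand) held 18 CpGs and Snai2 (chr16:14705695-14705944, plus strand) held 6.
Twist1: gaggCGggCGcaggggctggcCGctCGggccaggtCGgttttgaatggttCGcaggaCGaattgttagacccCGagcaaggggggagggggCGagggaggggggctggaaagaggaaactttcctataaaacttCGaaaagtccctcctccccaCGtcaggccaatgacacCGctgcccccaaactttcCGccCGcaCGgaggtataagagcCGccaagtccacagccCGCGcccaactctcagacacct
Snai2: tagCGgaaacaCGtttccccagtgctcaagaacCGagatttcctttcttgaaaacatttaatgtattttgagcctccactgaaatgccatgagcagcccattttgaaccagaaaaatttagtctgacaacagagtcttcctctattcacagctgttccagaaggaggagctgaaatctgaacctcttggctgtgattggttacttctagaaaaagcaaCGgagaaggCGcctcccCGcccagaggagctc
Within 500 bp of the start, on both sides, Snai2 held 51 CpGs, at a ratio of 0.699.

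In mESC, 8 of the 9 genes were bivalent in WT and 1, Msx2, was bivalent in KO. A gene was classed by whether an H3K4me3 domain lay within 2 kb and an H3K27me3 domain within 5 kb of its start: both make it bivalent, H3K4me3 alone active, H3K27me3 alone repressive. Over all coding genes, 18.3% were bivalent in WT and 4.29% in KO. The shares that were active, repressive and without a mark were 44.8%, 16.5% and 20.3% in WT and 52.7%, 3.29% and 39.8% in KO, and the class differed between the genotypes at 36.4%. The other 7 genes that were bivalent in WT, Sox9, Foxd3, Snai2, Twist1, Msx1, Tfap2a and Ednra, were active in KO, and Sox10 carried neither mark in either genotype. Among all genes bivalent in WT mESC, 60.5% were active in KO, 14.6% stayed bivalent, 5.8% were repressive and 19.0% had no mark. So 7 of the 8 genes that were bivalent in WT took the most frequent course, Msx2 did not, and none of the 8 lost H3K4me3.

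**Figure D1:**
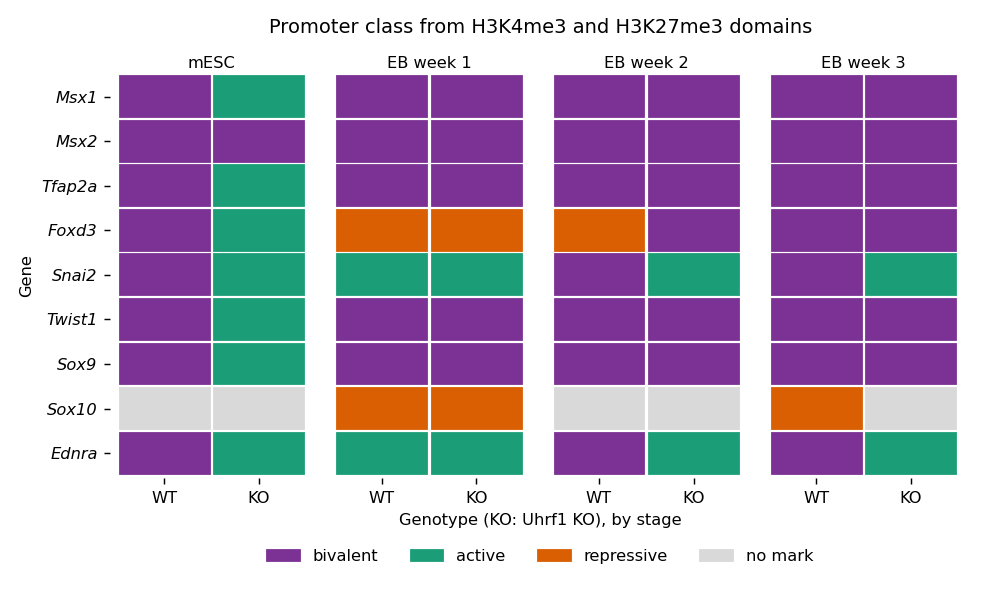
Promoter class of each of the 9 genes (rows) in WT and Uhrf1 KO at each stage (columns), with 1 library per mark, genotype and stage. In mESC, 7 rows turn from bivalent to active, and at weeks 2 and 3 only the rows of Snai2 and Ednra do so.

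In EBs the genotypes came closer. At week 1 the class of all 9 genes was the same in WT and KO: 5 were bivalent (Sox9, Twist1, Msx1, Msx2 and Tfap2a), 2 active (Snai2 and Ednra) and 2 repressive (Sox10 and Foxd3). Over all coding genes, 15.2%, 46.8%, 5.25% and 32.7% were bivalent, active, repressive and without a mark in WT, and 10.7%, 46.3%, 10.4% and 32.6% in KO, and the class differed at 18.1%. Of the genes bivalent in WT at week 1, 50.9% stayed bivalent and 24.1% were active in KO, whereas all 5 of the crest genes stayed bivalent. At week 2, 7 of the 9 were bivalent in WT and 6 in KO, against 13.7% and 13.4% of all genes. The other classes took 52.0% (active), 16.1% (repressive) and 18.2% (no mark) of all genes in WT and 51.1%, 10.7% and 24.8% in KO. At week 3 the counts were 8 and 6, against 19.6% and 11.3% of all genes, with 46.7%, 13.7% and 20.1% in the other classes in WT and 54.5%, 8.2% and 26.0% in KO. Of the genes bivalent in WT, 2 of 7 were active in KO at week 2 and 2 of 8 at week 3, against 35.3% and 46.8% of all such genes, and 54.5% and 46.7% of all such genes stayed bivalent. The class differed between the genotypes for 3 of the 9 genes at week 2 (29.0% of all genes) and for 3 at week 3 (23.0%). Of the 9 genes, only Snai2 and Ednra differed at 3 of the 4 stages, which 12.7% of all genes did at 3 or more.

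By the presence of a domain, the change between genotypes lay mostly in H3K27me3. H3K4me3 domains also differed in length and cover, as given below. Over the 36 pairs of gene and stage, an H3K4me3 domain was present in 30 in WT and in 31 in KO. All 30 were shared, and the added pair was Foxd3 at week 2. An H3K27me3 domain was present in 32 pairs in WT and in 20 in KO, again all shared. This leaves 12 pairs with the mark in WT alone: 7 in mESC, 2 at week 2 and 3 at week 3. The 7 in mESC rest on the KO list of 722 domains. By stage, H3K4me3 was at 8, 7, 7 and 8 of the 9 genes in WT mESC and at weeks 1, 2 and 3, and at 8, 7, 8 and 8 in KO. Over all coding genes the shares with H3K4me3 were 63.2%, 62.1%, 65.7% and 66.2% in WT and 57.0%, 57.0%, 64.5% and 65.8% in KO. Among all genes with it in WT, 88.0%, 90.0%, 94.7% and 96.3% had it in KO. H3K27me3 was at 8, 7, 8 and 9 of the 9 in WT and at 1, 7, 6 and 6 in KO. Over all genes these shares were 34.9%, 20.5%, 29.8% and 33.2% in WT and 7.57%, 21.1%, 24.1% and 19.5% in KO. Among all genes with H3K27me3 in WT, the shares that had it in KO were 15.5%, 72.3%, 48.8% and 49.9% in the same order.

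**Figure D2:**
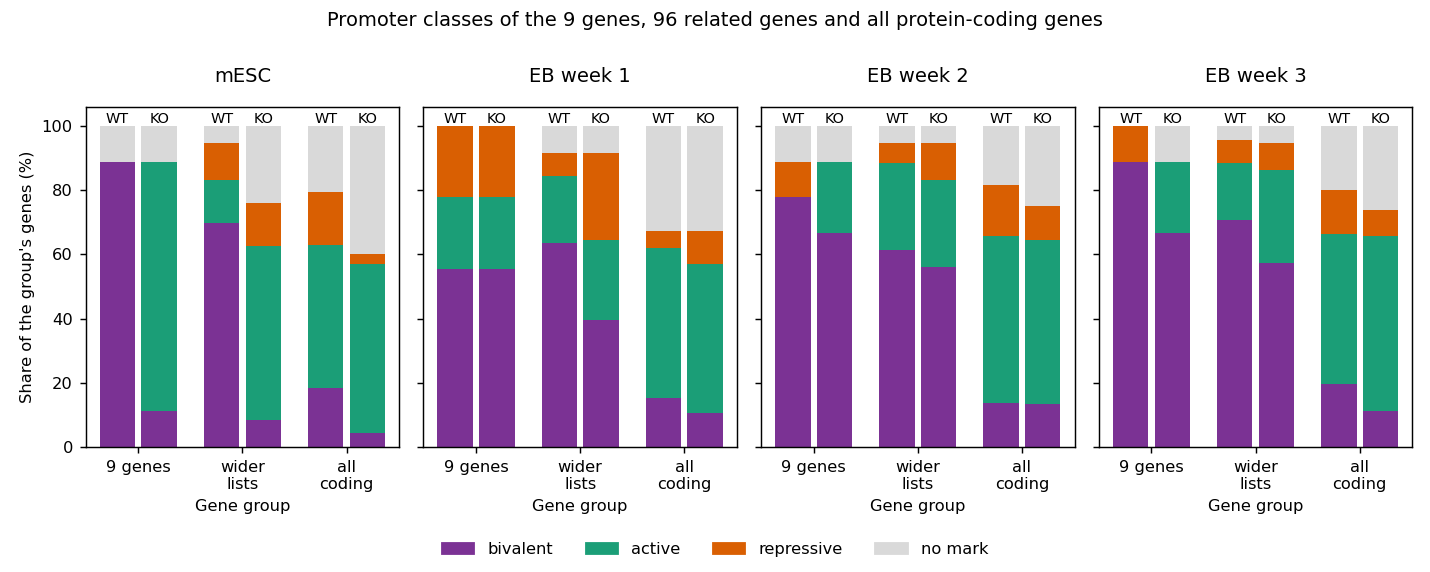
Share of genes (%) in each promoter class, for the 9 genes, 96 related genes of the neural crest and face, and all 22367 coding genes, in WT (left bar of each pair) and Uhrf1 KO (right bar). The bivalent share of the 9 genes is 8 of 9 in WT mESC and 1 of 9 in KO mESC, and all 3 groups have their lowest bivalent share in KO mESC.

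Msx1, a homeobox factor of the neural plate border, palate and teeth (chr5:38211724-38215822, minus strand), had an H3K4me3 domain over its start in all 8 lists. Its length was 13.0 kb in WT mESC and 11.7 kb in KO mESC, and in EBs 12.8 and 8.4 kb at week 1, 9.2 and 15.05 kb at week 2, and 14.8 and 9.6 kb at week 3. The H3K27me3 domain over its start was 311 kb long in WT mESC and absent in KO, where the nearest lay 747 kb away. In EBs both genotypes had one, of 38.5 and 108.0 kb at week 1, 243 and 599 kb at week 2, and 389 and 338 kb at week 3.

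Msx2, its paralog in the skull vault and limb (chr13:53562250-53568443, minus strand), was bivalent in all 8 combinations of genotype and stage. It is also among the genes that the study singled out on these samples, so its state here is no independent evidence. The study reports that both marks were markedly reduced at Msx2 in KO mESC, with ChIP-qPCR as a further measure. The presence of a domain, as counted here, does not measure the amount of a mark. The H3K4me3 domain of Msx2 measured 19.5 kb in WT mESC and 14.3 kb in KO mESC. In EBs the lengths hardly differed, with 17.2 and 16.1 kb at week 1, 16.4 and 16.1 kb at week 2 and 16.8 kb in both at week 3. The H3K27me3 domain that kept it bivalent in KO mESC was 828 kb long with a mean count of 0.14 reads per bin, against 484 kb and 5.73 in WT. With domains under 1 read per bin left out, a choice made after the data were seen, Msx2 was active in KO mESC and no gene of the 9 was bivalent there. In KO EBs its domain had 7.99, 6.69 and 4.97 reads per bin at weeks 1, 2 and 3, and the bivalent class there did not rest on such sparse domains.

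Tfap2a, which encodes the AP-2 alpha factor of border and crest (chr13:40811044-40829192, minus strand, named Tcfap2a in the annotation), had the longest H3K4me3 domain of the 9 in 5 of the 8 lists of that mark. They covered 42.9 kb in WT mESC and 29.9 kb in KO mESC, and in both extended past the 18.1 kb gene. At week 1 the length was 16.0 kb in WT and 4.9 kb in KO, the lowest ratio of KO to WT among the 9 genes at that stage. At weeks 2 and 3 it was 34.0 and 32.8 kb in WT and 33.95 and 32.0 kb in KO, close to each other and at the 99.0th percentile of length or above in each list. H3K27me3 over the start was 261 kb long in WT mESC and absent in KO, and 57.75 and 61.2 kb, 119 and 223 kb, and 144 and 70.2 kb in WT and KO at weeks 1, 2 and 3.

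Twist1, a basic helix-loop-helix factor of migrating crest and of the cranial sutures (chr12:34642536-34644682, plus strand), followed the same classes. It, Msx1 and Tfap2a were alike in all 18 histone lists, and each matched 137 other coding genes, its partners included. Alx1, Cdh6 and Foxc1, of the related genes described last, were among these. Its H3K4me3 domain was 18.2 kb in WT mESC and 15.6 kb in KO mESC. At week 1 it was 16.0 kb in WT but 7.0 kb in KO, in 2 pieces that left the start itself uncovered, from 0.586 kb before it to 0.815 kb after it. A gap over the start was there in both genotypes at week 2 and in neither at week 3. Twist1 and Foxd3, whose H3K4me3 domains also spared the start, had the highest G and C content of the 9 within 500 bp of the start, 72.3% and 68.3%. Whether base composition had a part in these gaps was not tested.

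Foxd3, a forkhead factor that specifies the crest and is also used by stem cells (chr4:99322990-99325362, plus strand), had H3K4me3 at its start in mESC and not at week 1, in both genotypes. In mESC the domain was 24.7 kb long in WT and 26 kb in KO, and reached 16.0 and 22.5 kb upstream. At week 1 neither genotype had a domain within 2 kb, although in WT a domain lay 2.21 kb away and in KO the nearest was 54.2 kb away. At week 2, KO had 2 domains of 11.55 kb in sum on either side of the start, while in WT the nearest was again 2.21 kb away. With a window of 5 kb that WT domain counts, and Foxd3 is then bivalent in both genotypes at week 2 and in WT alone at week 1. At week 3 the domains summed to 4.8 kb in WT and 12.4 kb in KO. The H3K27me3 domain of Foxd3 was 133 kb in WT mESC, absent in KO mESC, and present in all 6 EB lists, with lengths from 28.8 to 387 kb.

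Sox9, which drives cartilage formation and marks early crest (chr11:112643538-112649074, plus strand), was the gene whose H3K4me3 domain lengthened most in KO mESC. It measured 14.3 kb in WT and 35.1 kb in KO, and its far end moved from 11.9 to 32.7 kb downstream of the start. In EBs it lay between 8.0 and 10.8 kb in all 6 lists, with no such difference. In WT mESC the start of Sox9 sat in an H3K27me3 domain of 2551 kb, the longest of any of the 9 genes. In KO mESC the nearest H3K27me3 domain was 1946 kb away. At week 1 both genotypes had the mark over the start, in a domain of 78.75 kb in WT, far shorter than in mESC, and of 283 kb in KO.

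Sox10, the related factor of glia and pigment cells (chr15:78985343-78994920, minus strand), was the exception among the 9. No H3K4me3 domain came within 2 kb of its start in any of the 8 lists, and the nearest lay 14.7 to 20.1 kb away. It had no H3K27me3 domain in mESC or at week 2. At week 1 it had a domain of 7.0 kb in WT, which ended 1.67 kb from the start, and a domain of 36.0 kb over the start in KO. At week 3 a domain of 48.6 kb covered the start in WT, and in KO the nearest was 315 kb away. Sox10 was thus present in 3 of the 18 histone lists, the fewest of the 9.

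Snai2, the zinc finger repressor known as Slug that acts when crest cells leave the epithelium (chr16:14705945-14709488, plus strand), and Ednra were alike in all 18 histone lists, and each matched 18 other coding genes, its partner included. Both were bivalent in WT mESC and at weeks 2 and 3, and active in KO at all 4 stages. The call in mESC rests on H3K4me3 domains of lower score. With only the domains above the median score of each list, neither gene had H3K4me3 in mESC of either genotype. The bivalent genes of the 9 in WT mESC then numbered 6 in place of 8. By mean count, these H3K4me3 domains ranked at the 72.9th percentile for Snai2 and the 60.6th for Ednra in WT mESC. In KO mESC they ranked at the 53.3rd and 29.6th. The H3K4me3 domains of Snai2 were 7.8 kb in WT mESC and 5.2 kb in KO mESC, at the 46.4th and 21.0th percentile of length. In EBs they were 5.6 to 10.4 kb, at the 61.0th to the 91.9th percentile of length, and their mean count ranked at the 84.8th to the 98.0th percentile of its list. H3K27me3 at Snai2 spanned 21.6 kb in WT mESC, 205 kb at week 2 and 97.2 kb at week 3. In KO, the nearest such domain was never closer than 184 kb at any stage. At week 1 it was 410.2 kb away in WT and 409 kb away in KO.

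Ednra, the endothelin receptor that gives the lower jaw its identity (chr8:80186930-80248363, minus strand), is likewise among the genes the study singled out, so its values describe these libraries only. The study names Edrna, taken here as Ednra, among neuroectodermal genes whose promoters did not gain H3K4me3 in KO EBs. Here an H3K4me3 domain was listed at Ednra in both genotypes at every stage, which does not measure the amount of the mark. That domain was shorter in KO at every stage. It measured 6.5 and 5.2 kb in mESC, 10.8 and 5.95 kb at week 1, 27.6 and 20.65 kb at week 2, and 15.6 and 11.6 kb at week 3. Of the 9 genes, this held at all 4 stages for Ednra and, by listed length, Tfap2a. At week 2 the lengths of Tfap2a, 34.0 kb in WT and 33.95 kb in KO, differed by less than a bin. The H3K27me3 domains in WT were long, 385 kb in mESC, 767 kb at week 2 and 900 kb at week 3. At week 2 the domain stopped 1.04 kb short of the start, so with the mark read at the start itself, or with 50% of the window to be covered, Ednra had none in WT and did not differ in class from KO at that stage. In KO the nearest H3K27me3 domain was 60.4 kb away at week 3 and further at the other stages.

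**Figure D3:**
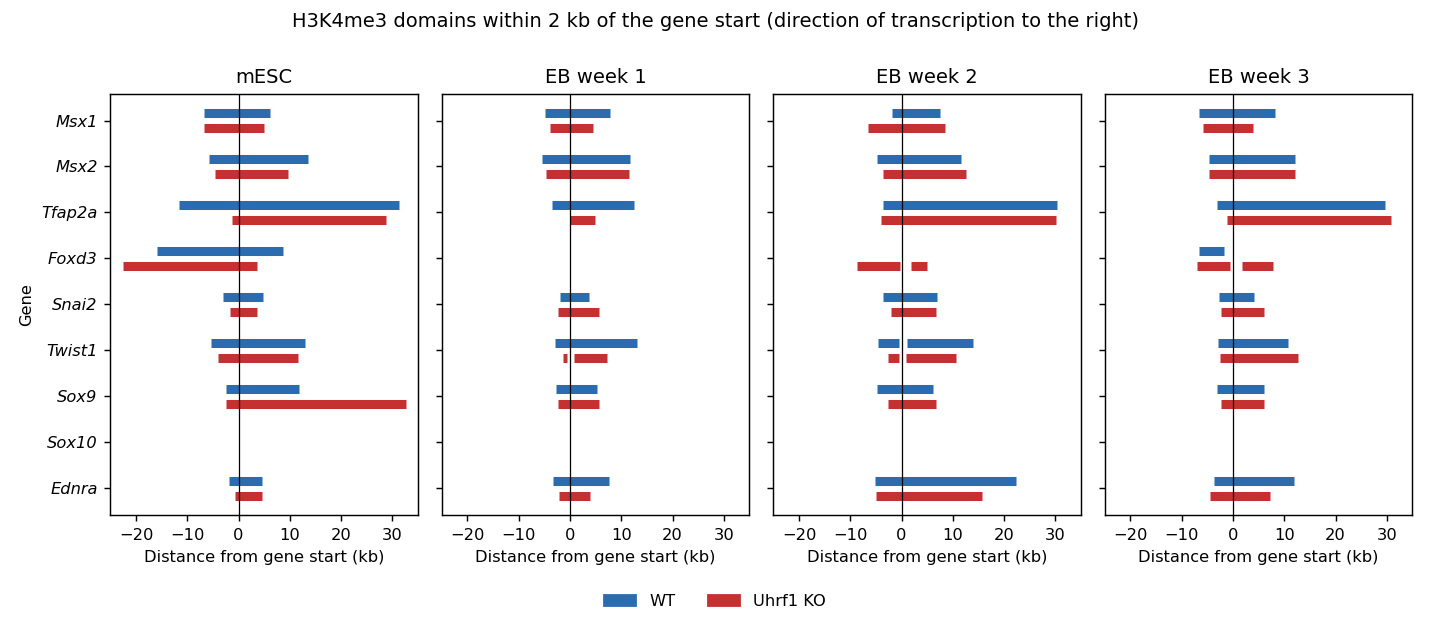
H3K4me3 domains that came within 2 kb of each gene start, in kb from the start (0) with transcription to the right, in WT and Uhrf1 KO, by stage. The KO domain of Sox9 in mESC runs to 32.7 kb downstream, the week 1 domain of Tfap2a is 16.0 kb in WT and 4.9 kb in KO, and Sox10 has none.

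Over the 9 genes, H3K4me3 domains were shorter in KO than in WT at 6 of 8 genes with a domain in both genotypes in mESC, 5 of 7 at week 1, 6 of 7 at week 2 and 4 of 8 at week 3. Among all coding genes with a domain in both, 49.4%, 82.0%, 67.2% and 46.0% were shorter in KO, so at week 1 the 9 genes did not stand above the whole list. In EBs the genes carried longer H3K4me3 than most: the median was 12.8, 16.4 and 14.2 kb in WT at weeks 1, 2 and 3, against 7.2, 8.4 and 8.8 kb over all genes with a domain. In KO it was 8.05, 13.475 and 12.0 kb, against 5.25, 7.0 and 8.8 kb. In mESC the medians, 16.25 kb in WT and 14.95 kb in KO, were near the 16.9 kb of all genes in both genotypes. Lengths are whole multiples of the bin of each list, 350 to 1300 bp for this mark. Tfap2a and Msx2 are counted as shorter in KO at week 2, although their lengths there differed by less than a bin. Those lengths were 34.0 and 33.95 kb for Tfap2a and 16.4 and 16.1 kb for Msx2, in WT and KO. The mean share of bases within 10 kb of the start inside an H3K4me3 domain was 60.9% in WT mESC and 48.7% in KO mESC. It was 46.1% and 33.0% at week 1, 51.2% and 54.7% at week 2, and 53.0% and 49.4% at week 3. Over all coding genes these means were 42.5% and 38.6%, 26.1% and 18.1%, 32.3% and 28.1%, and 32.9% and 33.0% in the same order. H3K27me3 domains, where both genotypes had them, were shorter in KO at 0 of 1 gene in mESC and at 2 of 7, 1 of 6 and 4 of 6 genes at weeks 1, 2 and 3, against 21.5%, 26.2%, 44.6% and 52.1% of all such genes.

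H3K27me3 covered the surroundings of the genes broadly, not only their starts. Of the bases within 50 kb of the start, the mean share inside an H3K27me3 domain over the 9 genes was 76.3% in WT mESC and 11.1% in KO mESC, against 28.3% and 6.48% over all coding genes. The KO value is that of Msx2 alone. At week 1 the means were 31.9% in WT and 42.8% in KO, against 8.38% and 12.4% over all genes. At week 2 they were 76.6% and 55.7%, against 25.7% and 20.1%, and at week 3 they were 90.2% and 62.7%, against 26.3% and 16.5%. The medians over the 9 genes were 98.6% and 0% in mESC, 36.7% and 39.6% at week 1, 100% and 60.0% at week 2, and 100% and 97.8% at week 3. Over all genes the medians were 10.8% in WT mESC, 10.9% in WT at week 3 and 0% in the other 6 lists. The lowest value in WT at week 3 was 48.6%, that of Sox10, whereas in KO at that stage Sox10, Snai2 and Ednra were at 0%.

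**Figure D4:**
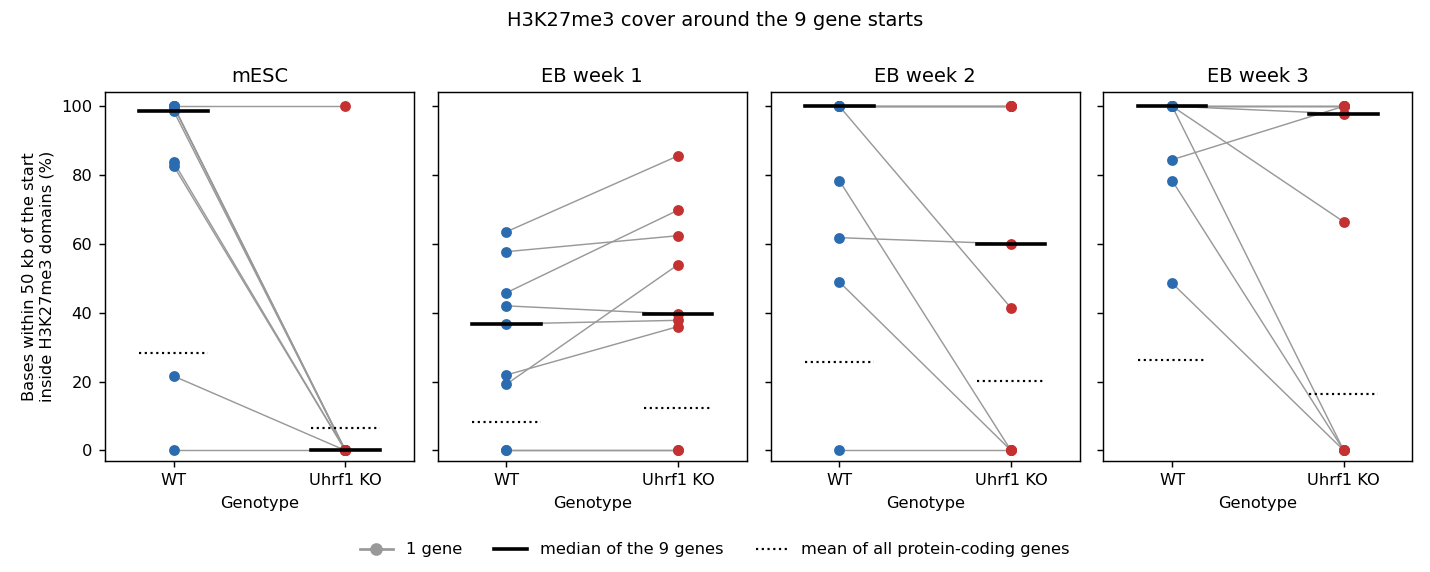
Share of bases within 50 kb of each gene start inside H3K27me3 domains (%), in WT and Uhrf1 KO, by stage, with a line joining the values of each gene. In KO mESC 8 of the 9 genes are at 0 and Msx2 is at 100%, the latter in a domain of 0.14 reads per bin, and by week 3 the medians are 100% and 97.8%.

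H3K9me3, the mark of constitutive heterochromatin that Uhrf1 also reads, was mapped in mESC only. It lay within 5 kb of the start of 3 genes in WT mESC (Sox9, Snai2 and Ednra, against 29.7% of all genes) and of 2 in KO (Sox9 and Foxd3, against 40.1%). Snai2 and Ednra had domains of 66.6 and 1201 kb in WT. In KO their nearest domains were 32.3 and 60.4 kb away. The KO list calls far longer domains: that over Sox9 was 26415 kb long against 2578 kb in WT, and that over Foxd3 was 839 kb long. Of all genes with the mark in WT, 74.9% had it in KO. The Uhrf1 list of WT mESC holds 10 kb windows enriched over input. None lay on any of the 9 genes, while 9.84% of all coding genes carried such a window. The nearest to Snai2 was 5.95 kb upstream of it (chr16:14690001-14700000). It overlapped the WT H3K9me3 and H3K27me3 domains of Snai2 in part, since both begin at position 14695201, inside the window. For the others it was 81.0 kb (Tfap2a) to 1424 kb (Sox9) away. The median distance was 325 kb over the 9 genes and 172 kb over all coding genes.

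Oct4, Sox2 and Nanog, the factors that hold stem cells in their undifferentiated state, had summits near 7 of the 9 genes in mESC, and near Sox10 and Ednra none was listed in either genotype. A summit was counted inside the gene or within 20 kb of it. Oct4 had 16 summits at Sox9, Foxd3, Msx1, Msx2 and Tfap2a in WT and 0 at any of the 9 in KO, where its list held 576 summits against 12898. Over all coding genes, 30.1% had an Oct4 summit in WT and 1.1% in KO. Sox2 went the other way, with 5 summits at 4 genes in WT and 23 at 7 genes in KO, against 18.8% and 57.7% of all genes. Nanog had 2 summits at 2 genes in WT and 6 at 3 genes in KO, against 7.51% and 27.4%. The lists differ in length in the same direction, with 5190 and 20755 Sox2 summits and 2390 and 10632 Nanog summits in WT and KO. When the longer list of each factor was reduced to its tallest summits, to the number of the shorter, the genes with a summit in WT and KO numbered 1 and 0 for Oct4, 4 and 4 for Sox2, and 2 and 1 for Nanog.

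**Figure D5:**
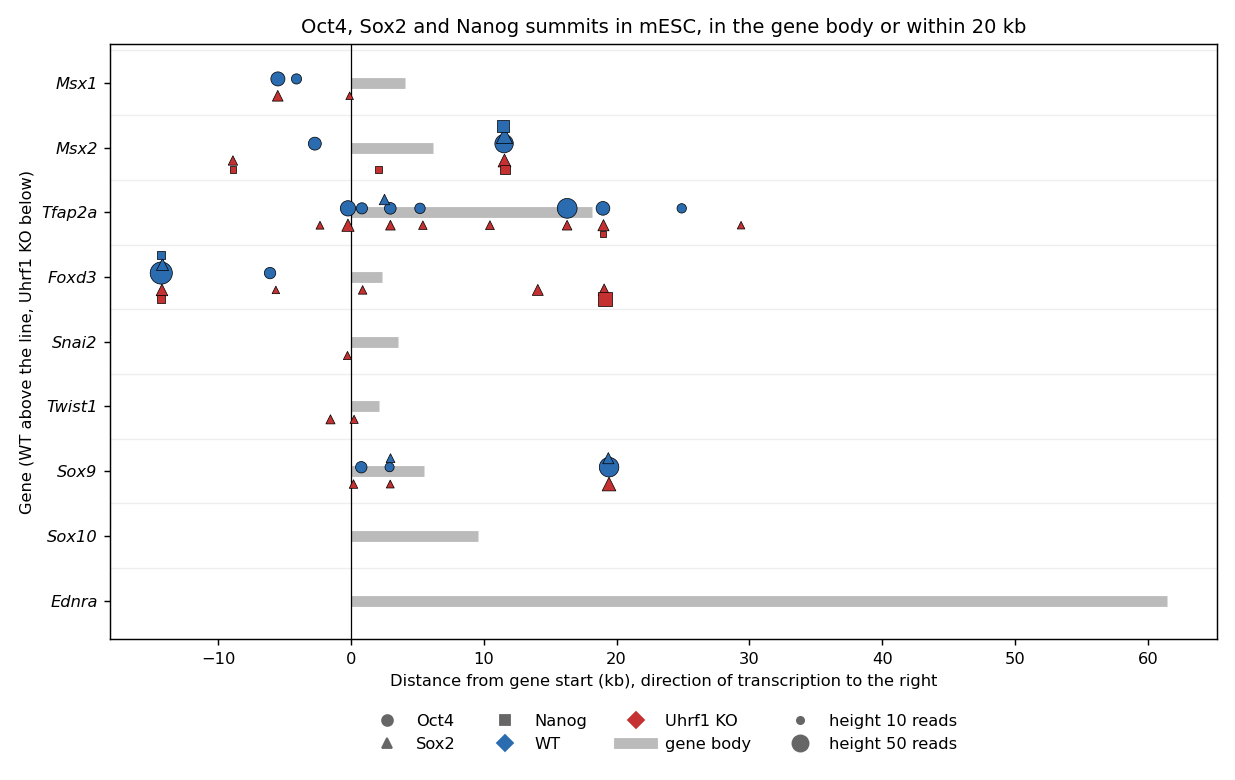
Oct4 (circles), Sox2 (triangles) and Nanog (squares) summits in mESC in or within 20 kb of each gene, in kb from the start with transcription to the right, in WT (above each line) and Uhrf1 KO (below), with the area of a symbol in proportion to the reads at the summit. Circles occur in WT only, and KO triangles are added at the starts of Msx1, Snai2, Twist1, Sox9 and Tfap2a.

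The tallest Oct4 summit of the set lay 14.3 kb upstream of Foxd3, with 94 reads (exact Poisson 95% interval 76.0 to 115, counting error only). Sox2 and Nanog had summits within 100 bp of it in both genotypes, of 28 reads in WT and 26 in KO for Sox2 and of 14 and 13 for Nanog, while no Oct4 summit was listed in KO. A site 11.5 kb past the start of Msx2, downstream of the gene, had the same makeup, with 65 Oct4 reads, 50 and 32 Sox2 reads and 32 and 18 Nanog reads in WT and KO. A site 19.4 kb past the start of Sox9 had 73 Oct4 reads in WT and 24 and 36 Sox2 reads in WT and KO. In Tfap2a, an intron site 16.3 kb from the start had 75 Oct4 reads in WT and, in KO, 18 Sox2 reads. The 101 bases centred on the Oct4 summit of these sites and of a further Msx2 site, 2.71 kb upstream with 32 reads, are printed on the strand of the gene, 5′ to 3′, because they show which sites hold the Oct4 motif. Capitals mark that motif, ATGCNAAT on either strand. The Sox motif was searched only as the string ACAATG on either strand, which was found in none of these windows. Other forms of the Sox motif were not searched.
Foxd3 upstream (chr4:99308668-99308768, plus strand): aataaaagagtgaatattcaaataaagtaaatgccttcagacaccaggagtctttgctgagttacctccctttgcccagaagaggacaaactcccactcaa
Msx2 downstream (chr13:53556864-53556964, minus strand): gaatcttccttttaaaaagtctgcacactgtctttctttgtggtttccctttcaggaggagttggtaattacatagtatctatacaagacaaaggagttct
Tfap2a intron (chr13:40812862-40812962, minus strand): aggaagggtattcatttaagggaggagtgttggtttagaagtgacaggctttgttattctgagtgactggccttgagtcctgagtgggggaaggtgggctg
Sox9 downstream (chr11:112662920-112663020, plus strand): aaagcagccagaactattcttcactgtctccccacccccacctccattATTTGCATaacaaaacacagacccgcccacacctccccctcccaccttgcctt
Msx2 upstream (chr13:53571107-53571207, minus strand): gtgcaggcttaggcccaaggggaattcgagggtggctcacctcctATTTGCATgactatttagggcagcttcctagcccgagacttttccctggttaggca
The motif was found at 3 of the 16 Oct4 sites, those of Sox9 and Msx2 shown here and the site 0.22 kb upstream of Tfap2a. It was in 14.9% of 12697 WT Oct4 windows of this size over the chromosomes, and the Sox motif in 7.88%, so the tallest sites of Foxd3, Msx2 and Tfap2a are among the many that hold neither exact string.

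At the 16 WT Oct4 sites, an Oct4 summit within 100 bp in KO was found at 0, against 1.89% of all WT Oct4 summits. Sox2 was within 100 bp at 4 of the sites in WT and 9 in KO, and Nanog at 2 in WT and 3 in KO. Over all WT Oct4 summits these shares were 24.2%, 46.0%, 12.9% and 32.4%. A Sox2 or Nanog summit that occurred in KO only was found at 6 of the 16, 4 of them at Tfap2a and 1 each at Msx1 and Msx2, against 36.2% of all WT Oct4 summits. The KO Nanog summit at Msx2 was 133 bp from a WT Nanog summit and counts as KO-only at 100 bp alone. Of the WT summits of Sox2 near these genes, 4 of 5 had a KO summit within 100 bp, and of those of Nanog, 1 of 2.

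In KO mESC, Sox2 summits also lay close to the starts of the genes. Within 500 bp of the start, a distance chosen after the values were seen, Sox2 had a summit at 5 genes in KO and at 0 in WT, against 20.5% and 2.91% of all coding genes. The positions were 93 bp upstream of Msx1, 220 bp upstream of Tfap2a, 288 bp upstream of Snai2, 196 bp past the start of Sox9 and 242 bp past that of Twist1. The heights were 11, 29, 13, 14 and 13 reads in that order, against a median of 18 in the whole KO list, so 4 of these 5 were lower than most. In the same order they ranked at the 7.96th, 79.7th, 22.5th, 30.2th and 22.5th percentile of height in the KO list. That list held 20755 Sox2 summits against 5190 in WT. The counts at the start were not repeated with lists of equal number, so the part of list length in them was not tested. The summit at Tfap2a is on the very base at which Oct4 had a summit of 45 reads in WT. Of all 23 KO Sox2 summits near the 9 genes, 17 lay inside a KO H3K4me3 domain and 19 inside one of WT, against 48.2% and 55.0% of the whole KO Sox2 list.

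The classes of 96 further genes of the crest and face, in 5 lists by role, were read the same way. In WT mESC 67 of the 96 were bivalent and in KO mESC 8, against 18.3% and 4.29% of all coding genes. Of the 67, 36 were active in KO, 15 had no mark, 8 were repressive and 8 stayed bivalent. Over all genes bivalent in WT mESC, these shares were 60.5%, 19.0%, 5.8% and 14.6%. Some of the 67 thus lost H3K4me3, as did some of all such genes, unlike the 9 genes. By role, the bivalent genes in WT and KO mESC numbered 9 and 1 of 12 at the neural plate border, 11 and 0 of 17 in crest specification and migration, 25 and 4 of 35 in craniofacial patterning, 10 and 2 of 18 in crest derivatives and 12 and 1 of 14 among inducing signals. At weeks 1, 2 and 3 the bivalent genes of the 96 were 61, 59 and 68 in WT and 38, 54 and 55 in KO. Over all coding genes the bivalent shares were 15.2%, 13.7% and 19.6% in WT and 10.7%, 13.4% and 11.3% in KO. The class differed at 3 or more stages for 11 of the 96, against 12.7% of all coding genes. The first of the 11 by alphabet were Alx4, Bmp4, Dct, Edn1, Gsc and Lmo4. Bmp4, a signal that induces the neural plate border, was bivalent in WT and active in KO at all 4 stages, the pattern that Snai2 and Ednra had at 3. Edn1, which encodes the ligand of the receptor Ednra, was bivalent in WT and active in KO in mESC and at week 3, bivalent in both at week 1, and active in WT and bivalent in KO at week 2. Meis2 and Nog were alike to Sox9 in all 18 lists.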

How the data were processed

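ChIP-seq lists of 25 samples were used, and the 8 input samples were not used here. Per the submitters' processing notes and methods, the authors mapped reads to mm9 with Bowtie2 v2.1.0, called histone domains with RSEG against input and summits with MACS, and made a list per library. The authors deposited for every domain its mean count of reads in a bin, treated here as a signal, and a score. The bin, 350 to 1800 bp, differed between lists, and the methods state that read counts were normalized to mapped reads without tying this to these columns, so the values were ranked or filtered within a list. For each summit the deposited signal is its height in reads. The lists hold no read totals. The study's sequencing summary does, with fewer mapped reads in KO than in WT mESC for every mark and factor compared here, but lists were not scaled to it, and the part of depth was not tested. The other deposited columns used are the positions of 10 kb Uhrf1 windows, which carry no score.

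Gene starts came from GENCODE vM1 on NCBIM37 (mm9). No list reached past a chromosome end. Where GENCODE uses an older symbol, RefSeq synonyms were followed. A promoter was marked by any overlap of a domain with 2 kb (H3K4me3) or 5 kb (H3K27me3, H3K9me3) either side of the start, while the authors' own classes came from reads over input. Summits were counted in the gene body or within 20 kb, and shared within 100 bp. Sequences were read from NCBIM37. Overlaps were computed with Python 3.11.15 and numpy 2.4.6 and tested on simulated data: of 200 planted domains at each of 3 windows, 0 were missed. With 1 library per group there was no test, and member counts were read beside the share of all 22367 coding genes. The 9 genes, the related genes and the marker lists were chosen with earlier results of these data known. All 9 genes are named. Of the 96 related genes, counts are given, with by name the first 6 by alphabet whose class differed at 3 or more stages and those alike to a member in all 18 histone lists. Alternatives were other windows and distances, domains or summits above the median of their list, cover of 50% of the window, any transcript start, lists of equal number and, chosen after the data were seen, a minimum of 1 read per bin and Sox2 distances from the start.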

Additional observations from a re-analysis of the deposited data

Results flagged for a closer look

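The summed length of the domains at the 9 genes changed in opposite directions between stages, which was flagged although the difference between stages was not tested. H3K4me3 domains summed to 146.9 kb in WT mESC and 143 kb in KO mESC, a KO minus WT difference of -3.9 kb. At week 1 the sums were 86.4 and 58.45 kb, a difference of -27.95 kb. At week 2 they were 125.2 and 127.4 kb, a difference of 2.2 kb. The 11.55 kb of Foxd3, counted in KO alone, exceeded this difference, so without Foxd3 the KO sum was the lower. In WT the nearest H3K4me3 domain of Foxd3 was 2.21 kb from the start, just outside the 2 kb window. The opposite direction for H3K4me3 thus rests on Foxd3 alone. At week 3 both were 114.4 kb. The median length over all coding genes with a domain was 7.2 kb in WT and 5.25 kb in KO at week 1. It was 8.4 and 7.0 kb at week 2, and the same in both genotypes in mESC (16.9 kb) and at week 3 (8.8 kb).

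H3K27me3 domains summed to 4387 kb in WT mESC and 828 kb in KO mESC, a difference of -3559 kb. The Sox9 domain made up 2551 kb of the WT sum, and the KO sum rests on the list of 722 domains. At week 1 they summed to 262.5 and 601 kb, 338.7 kb more in KO, of which Sox9 had 78.75 and 283 kb. At weeks 2 and 3 the differences were -586.8 and -1246 kb. The number of genes with H3K27me3 was the same in both genotypes at week 1, 7 of 9, and lower in KO at the other stages. Over all coding genes with an H3K27me3 domain, the median length at week 1 was 14 kb in WT and 28.8 kb in KO. It was 124.2 and 145.5 kb in mESC, 261 and 122.4 kb at week 2, and 90 and 129.6 kb at week 3.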

How the results depend on the processing

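Of 179 values recomputed under an alternative, 167 stayed within 1.5 times the reported count, among them every H3K4me3 count and, apart from KO mESC, every H3K27me3 and bivalent count under every alternative run. A stable count does not mean that the same genes made it up in both genotypes, as given above for Twist1, Sox10 and Foxd3 at week 1. With at least 1 read per bin, the H3K27me3 and bivalent counts in KO mESC fell from 1 to 0. With the longer list of a factor reduced to the number of the shorter, the genes with Oct4 in WT fell from 5 to 1, with Sox2 in KO from 7 to 4 and with Nanog in KO from 3 to 1. Within 5 kb of the gene body, Sox2 in WT was at 2 genes and Nanog in WT at 0, and with summits above the median height Nanog in WT was at 1. The WT Nanog summits with a KO Nanog summit rose from 1 to 2 at 500 bp and at 1000 bp. Uhrf1 windows were near 1 gene, Snai2, within 10 kb and within 50 kb, against 0 on the gene. No paired analysis was possible because each group held 1 library. Lists were not scaled to depth, so a domain or summit that is not listed may have been below what a library could show.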
